A study of Mus musculus with 4 samples.

Results

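The Fc gamma receptors and the chain they share were followed across immune cells from a mouse melanoma. The group held 5 of the 32285 genes in the deposited matrix: *Fcgr1*, *Fcgr3* and *Fcgr4*, which encode activating receptors for IgG, *Fcgr2b*, which encodes the inhibitory receptor, and *Fcer1g*, which encodes the common gamma chain. They were chosen by symbol, and each symbol was found once. Levels were read in the 8822 cells that passed the study's filter, out of 10605 cell barcodes.

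The study asked which immune cells in a tumor take up material made by the tumor cells. Wild-type C57BL/6 mice carried subcutaneous B16-F10 melanoma cells grown from 1 bright clone with a lentiviral ZsGreen (ZsG) gene that doxycycline switches on, and drank doxycycline water for 4 days before tumors were taken on day 8. CD45+ cells were sorted into a ZsG- and a ZsG+ gate, and each gate gave 1 droplet library (10x 3′ v3.1), with no replicate. No value below therefore describes the spread between mice, and gate and library cannot be told apart. Both gates were sorted from the total CD45+ cells of ZsG tumors, and all mice received doxycycline. The sources used here give neither the age and sex of the mice nor the number pooled.

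An Fc gamma receptor binds the constant part of IgG and so lets a cell respond to a target coated with antibody. The activating receptors have no signaling tail of their own. They pair with the common gamma chain, whose ITAM (an activating tyrosine motif) recruits the kinase Syk and starts phagocytosis in macrophages or killing in NK cells. The inhibitory receptor carries an ITIM on its own tail, recruits the phosphatase SHIP-1 and damps the same signals, so the balance of both kinds is held to set how easily a cell is triggered by immune complexes. The common gamma chain also serves receptors that bind no IgG, among them the lectins Mincle and Dectin-2 and the NK receptor NKp46. The receptor for IgG that NK cells are known for is the product of *Fcgr3*, and the product of *Fcgr4* is the receptor of mouse non-classical monocytes and macrophages that binds IgG2a and IgG2b.

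On GRCm38, with GENCODE vM21 annotation, *Fcgr2b* (ENSMUSG00000026656, chr1:170958617-170976547, minus strand), *Fcgr4* (ENSMUSG00000059089, chr1:171018920-171029761, plus strand), *Fcgr3* (ENSMUSG00000059498, chr1:171051174-171064935, minus strand) and *Fcer1g* (ENSMUSG00000058715, chr1:171229572-171234365, minus strand) lie within 276 kb of chromosome 1. *Fcgr1* (ENSMUSG00000015947, chr3:96282909-96293969, minus strand) lies on chromosome 3. All 5 are annotated as protein coding. The 150 bases before the RefSeq transcription start of each gene (GRCm38.p6, RefSeq) are shown because the members are read in the same myeloid classes below, and the letters show which promoters share a short motif. Capitals mark matches to GAGGAA, a core bound by PU.1-type factors and searched on both strands (TTCCTC on the strand shown). For *Fcgr3*, which has 2 RefSeq starts, the window of the start farther downstream is shown.

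*Fcgr1*, chr3:96293970-96294119, minus strand: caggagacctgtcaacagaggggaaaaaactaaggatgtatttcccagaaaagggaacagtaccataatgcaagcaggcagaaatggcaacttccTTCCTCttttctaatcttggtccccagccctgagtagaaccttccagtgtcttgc
*Fcgr3*, chr1:171059395-171059544, minus strand: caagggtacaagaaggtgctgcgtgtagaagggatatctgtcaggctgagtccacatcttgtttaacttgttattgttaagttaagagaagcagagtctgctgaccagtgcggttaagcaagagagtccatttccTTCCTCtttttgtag
*Fcgr4*, chr1:171018776-171018925, plus strand: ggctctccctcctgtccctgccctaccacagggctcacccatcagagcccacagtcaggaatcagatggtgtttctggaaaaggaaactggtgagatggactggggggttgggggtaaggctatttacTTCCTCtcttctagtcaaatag
*Fcgr2b*, chr1:170976072-170976221, minus strand: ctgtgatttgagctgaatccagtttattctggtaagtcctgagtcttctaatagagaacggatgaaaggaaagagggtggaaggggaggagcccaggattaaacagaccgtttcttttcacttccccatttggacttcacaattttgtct
*Fcer1g*, chr1:171234350-171234499, minus strand: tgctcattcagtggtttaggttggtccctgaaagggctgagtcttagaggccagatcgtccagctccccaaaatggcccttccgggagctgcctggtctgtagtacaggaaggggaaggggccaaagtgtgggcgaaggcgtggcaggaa

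The GAGGAA core was present in the windows of the 3 activating receptors, all on the reverse strand, and in neither that of *Fcgr2b* nor that of *Fcer1g*. It lay 55 to 50 bases before the start of *Fcgr1*, 15 to 10 bases before that of *Fcgr3* and 22 to 17 bases before that of *Fcgr4*. Among 32851 RefSeq promoter windows of the same length, 14.5% held GAGGAA. A match is a description of these letters and not a site of binding.

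The ZsG- library kept 4699 cells with a median of 5769 UMIs (unique molecular identifiers, each standing for 1 captured RNA molecule), and the ZsG+ library kept 4123 cells with a median of 9928 UMIs. *Ptprc*, the gene of CD45, had a UMI in 99.4% and 94.6% of them. The labels call the cells lymphocytes, and clusters with lymphoid markers held 86.3% of the ZsG- cells but 5.63% of the ZsG+ cells, of which 81.9% had myeloid markers. The remaining 621 cells were left without a name, 516 of them in the ZsG+ library. The libraries shared 6 barcodes, of which 5 were kept in both.

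Names below stand for clusters that are like their markers. *Ace* (489 CPM, UMIs per 1000000 UMIs of the same cells) marked non-classical monocyte-like cells, *Vcan* (413 CPM at its highest) Vcan/Chil3 monocyte-like cells and *C1qa* (2526 CPM) C1q macrophage-like cells, of which a separate cluster was cycling. *Hilpda* (967 CPM) marked hypoxic macrophage-like cells, *Cd209a* (957 CPM) DC2-like cells, *Xcr1* (366 CPM) DC1-like cells, *Fscn1* (1128 CPM) mature DC-like cells and *Siglech* (1976 CPM) plasmacytoid DC-like cells. *Klrb1c* (464 CPM) marked NK-like cells, *Xcl1* (2533 CPM) Ly49-negative ILC1-like cells, *Cd3d* (941 CPM) T-like cells and *Cd79a* (2495 CPM) B-like cells. Of the ILC1 list, *Xcl1* (1093 CPM in NK-like cells), *Cd7* and *Ltb* were highest in the ILC1-like class. *Cxcr6* (144 against 187 CPM) and *Tnfrsf9* (205 against 368 CPM) were higher in T-like cells. *Tmem176a* and *Tmem176b* were higher in mature DC-like cells and *Itga1* in Hp-led monocytes. The words Ly49-negative come from the name of the list, which holds no Ly49 (*Klra*) gene. The class held *Klra9* at 61.1 CPM, *Klra8* at 41.4 CPM and *Klra4* at 23.7 CPM. In NK-like cells they were 265, 424 and 662 CPM at their highest. A further monocyte cluster, led by *Hp*, scored highest on the Vcan/Chil3 list, which itself holds *Hp*. Its score (mean scaled level of the markers) was 0.856 there and 0.573 on the non-classical list. The Vcan/Chil3 clusters scored 0.852 and 0.902 on their list. The further cluster is called Hp-led, a name with no list of its own, because its *Hp* level was more than 2 times its *Vcan* level. None of the 5 members, and none of the pathway genes described below, was used to form the clusters.

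The 3 activating receptors and *Fcgr2b* were read mainly in monocyte-like and macrophage-like cells, at 32.1 to 804 CPM against at most 2.52 CPM in T-like cells of the ZsG- library, while *Fcer1g* was also high in NK-like, ILC1-like and plasmacytoid DC-like cells. *Fcgr1* was highest in Vcan/Chil3 monocyte-like cells, *Fcgr2b* in hypoxic macrophage-like cells, and *Fcgr4* and *Fcer1g* in C1q macrophage-like cells. Ranges in parentheses are 95% intervals (exact Poisson for levels, exact binomial for shares, exact conditional for ratios) and cover counting error only. Classes with fewer than 25 cells in a library are not given there, which leaves 18 class and library groups.

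**Figure D1:**
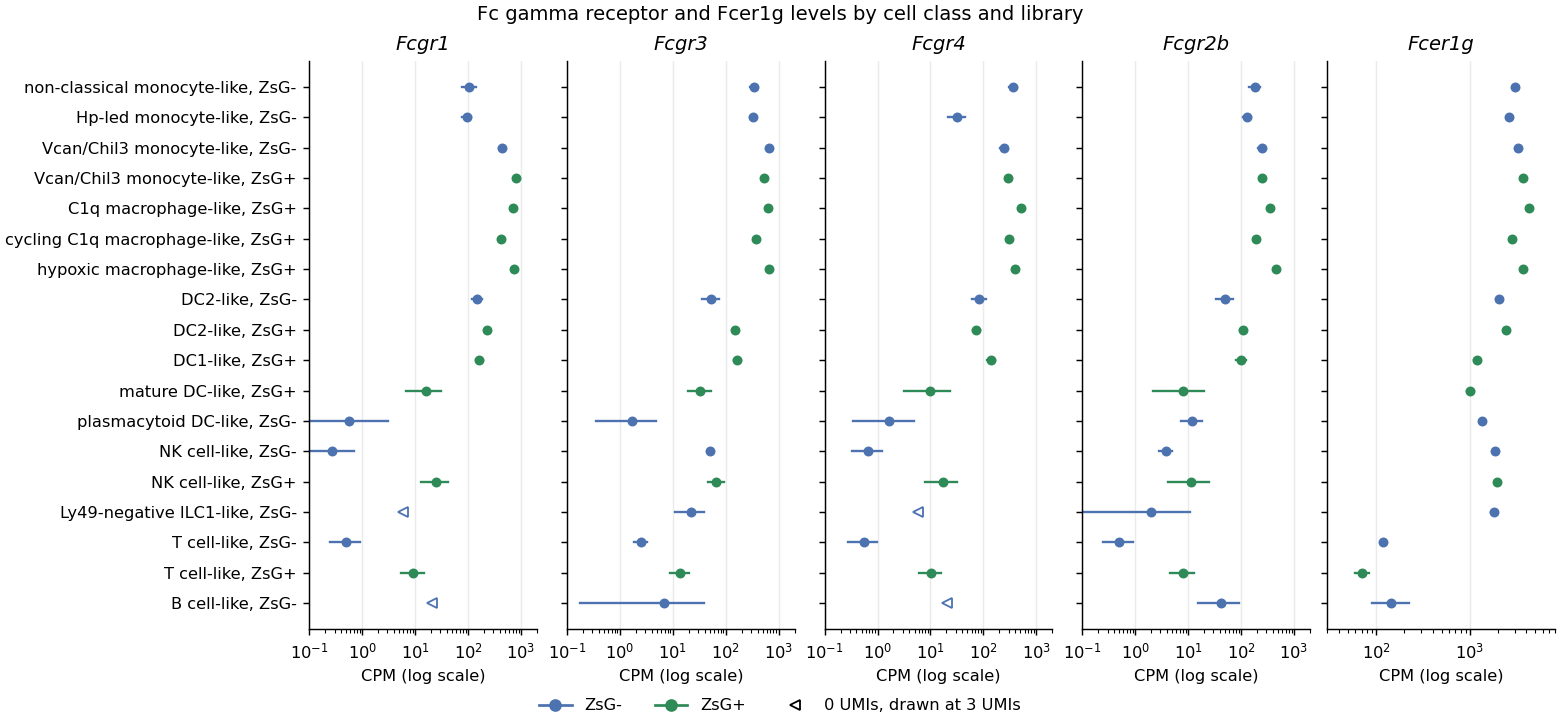
Level of each member in CPM (log axis) in every class with at least 25 cells, by library, with 95% Poisson intervals for counting error, cut at 0.1 CPM on the left. Open triangles mark a class with 0 UMIs, drawn at the level of 3 UMIs. *Fcer1g* stays above 1000 CPM from macrophage-like to mature DC-like cells, while the receptors drop by group.

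*Fcgr1* encodes the high-affinity receptor that binds monomeric IgG. Its level was 804 CPM (777 to 832) in ZsG+ Vcan/Chil3 monocyte-like cells, 733 CPM (707 to 760) in hypoxic and 718 CPM (706 to 730) in C1q macrophage-like cells, and the intervals of both macrophage classes overlapped. Next came 430 CPM in ZsG- Vcan/Chil3 monocyte-like and 421 CPM in cycling C1q macrophage-like cells, whose intervals also overlapped. Then followed 230 CPM in ZsG+ DC2-like cells, 163 CPM in ZsG+ DC1-like cells and 151 CPM in ZsG- DC2-like cells. Non-classical monocyte-like cells had 106 CPM and Hp-led monocytes 94.0 CPM, which could not be told apart. In the ZsG- library *Fcgr1* was near its floor in lymphoid cells and plasmacytoid DC-like cells, with 4 UMIs over 2439 NK-like cells, 10 UMIs over 1499 T-like cells and 1 UMI over 205 plasmacytoid DC-like cells. It had 0 UMIs in 78 ILC1-like cells and in 39 B-like cells, which allows a level of up to 5.91 CPM and 20.7 CPM (3 UMIs).

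*Fcgr3* encodes the low-affinity activating receptor that binds immune complexes. Its level in ZsG- Vcan/Chil3 monocyte-like cells was 660 CPM (598 to 727), which overlapped those in hypoxic (647 CPM) and C1q (617 CPM) macrophage-like cells. ZsG+ Vcan/Chil3 monocyte-like cells had 538 CPM, cycling C1q macrophage-like cells 375 CPM, non-classical monocyte-like cells 336 CPM and Hp-led monocytes 329 CPM. The receptors thus did not share 1 order: within the Vcan/Chil3 class *Fcgr1* was higher in the ZsG+ cells and *Fcgr3* in the ZsG- cells. *Fcgr3* was 50.7 CPM (47.2 to 54.5) in ZsG- NK-like cells and 21.7 CPM (10.8 to 38.8) in ILC1-like cells, against 2.52 CPM in T-like cells. Only 3 UMIs were found over 205 plasmacytoid DC-like cells.

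*Fcgr4* had the steepest steps among the monocytes. It was 511 CPM (501 to 521) in C1q and 403 CPM (384 to 423) in hypoxic macrophage-like cells, and 367 CPM (311 to 429) in non-classical monocyte-like cells, whose interval overlapped that of the hypoxic class. Cycling C1q macrophage-like cells had 306 CPM and Vcan/Chil3 monocyte-like cells 289 CPM (ZsG+) and 243 CPM (ZsG-). Hp-led monocytes had 32.1 CPM (21.6 to 45.8), below DC2-like cells of either library (83.1 CPM in ZsG- and 73.1 CPM in ZsG+). NK-like cells of the ZsG- library had 10 UMIs, or 0.673 CPM, a level that overlapped that of T-like cells (0.554 CPM).

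*Fcgr2b*, the inhibitory receptor and the Fc gamma receptor of B cells, was highest in hypoxic macrophage-like cells at 462 CPM (442 to 484), followed by C1q macrophage-like cells at 348 CPM (340 to 356). Vcan/Chil3 monocyte-like cells had 248 CPM in the ZsG- and 247 CPM in the ZsG+ library. These 2 values differed by less than their counting error, unlike those of *Fcgr1* in the same cells. B-like cells gave 6 UMIs, or 41.5 CPM (15.2 to 90.3), and *Fcgr2b* was the leading receptor there, with 1 UMI for the 3 activating receptors together. Plasmacytoid DC-like cells gave 21 UMIs, or 11.8 CPM (7.29 to 18.0), above 3.77 CPM in ZsG- NK-like and 0.503 CPM in ZsG- T-like cells.

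*Fcer1g* was 4224 CPM (4195 to 4252) in C1q macrophage-like cells and between 2621 and 3723 CPM in the other monocyte-like and macrophage-like groups. DC2-like cells had 2409 CPM (ZsG+) and 2060 CPM (ZsG-). Next came lymphoid cells that carry few receptor transcripts: NK-like cells had 1957 CPM in the ZsG+ and 1837 CPM in the ZsG- library and ILC1-like cells 1802 CPM, 3 neighbors in the order with overlapping intervals. Plasmacytoid DC-like cells had 1351 CPM, DC1-like cells 1182 CPM and mature DC-like cells 1016 CPM. B-like and T-like cells of the ZsG- library were lowest but for ZsG+ T-like cells, at 145 and 119 CPM against 70.9 CPM.

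Shares of cells depend on depth, so every cell was thinned to 3000 UMIs and shallower cells were left out. *Fcer1g* then had a UMI in 99.9% of 1582 C1q macrophage-like cells and 98.7% of 2159 ZsG- NK-like cells, but in 30.1% of 1446 ZsG- T-like cells (unthinned, 99.9%, 99.8% and 42.1%). *Fcgr3* had a UMI in 15.2% (13.7 to 16.8) of the thinned ZsG- NK-like cells and 1.04% of the T-like cells, with 23.2% and 2.87% before thinning. At this depth most NK-like cells gave no *Fcgr3* UMI, which does not show that they lack the transcript. *Fcgr1* had a UMI in 84.9% of thinned C1q macrophage-like cells and 84.1% of ZsG+ Vcan/Chil3 monocyte-like cells, and in 17.5% of 57 non-classical monocyte-like cells. Both kinds of receptor were read in the same cell in 57.5% of C1q macrophage-like, 62.5% of hypoxic macrophage-like and 48.6% of ZsG+ Vcan/Chil3 monocyte-like cells. The same share was 29.8% in non-classical monocyte-like cells, 23.2% in Hp-led monocytes and 15.1% in ZsG+ DC2-like cells. All 3 activating receptors were read together in 50.4% of C1q macrophage-like cells and 3.51% of non-classical monocyte-like cells. *Fcer1g* without any receptor UMI was the commonest pattern in ILC1-like cells (93.3%), plasmacytoid DC-like cells (91.2%), ZsG- NK-like cells (82.4%) and mature DC-like cells (71.7%).

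The ratio of activating receptor UMIs (*Fcgr1*, *Fcgr3* and *Fcgr4* summed) to *Fcgr2b* UMIs compares genes within the same cells and so does not depend on depth. Because a UMI may stand for a different share of the molecules of each gene, the ratio is compared between classes and not read as a balance of proteins. *Fcgr2b* and *Fcgr3* have closely alike extracellular parts, and how many reads matched both genes was not tested. It ran from 3.49 to 6.59 over monocyte-like and macrophage-like cells. It was lowest among the macrophages in hypoxic macrophage-like cells, at 3.86 (3.67 to 4.05), against 5.31 (5.18 to 5.45) in C1q and 5.75 (5.41 to 6.12) in cycling C1q macrophage-like cells. In ZsG+ Vcan/Chil3 monocyte-like cells it was 6.59 (6.17 to 7.05), in the ZsG- cells of that class 5.38 (4.53 to 6.42), in non-classical monocyte-like cells 4.44 (3.46 to 5.76) and in Hp-led monocytes 3.49 (2.85 to 4.31). ZsG- NK-like cells had the highest ratio with a narrow interval, 13.7 (10.4 to 18.3), on 768 activating and 56 *Fcgr2b* UMIs. Plasmacytoid DC-like cells had more inhibitory than activating UMIs, 21 against 7, a ratio of 0.333 (0.120 to 0.814). A further cluster had no name because it scored 0.638 on the plasmacytoid DC list and 0.635 on the DC2 list. Its 25 ZsG- cells held 24 UMIs of *Fcgr1*, 15 of *Fcgr3* and 5 of *Fcgr4*, against 11 of *Fcgr2b*. They are in none of the values for plasmacytoid DC-like cells, which hold for the named cells only.

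The mix of the 4 receptors also differed between classes. *Fcgr4* was 37.0% (32.4 to 41.8) of receptor UMIs in non-classical monocyte-like cells and 5.47% (3.72 to 7.72) in Hp-led monocytes, where *Fcgr3* was 56.2%. *Fcgr1* was 42.8% of receptor UMIs in ZsG+ and 27.2% in ZsG- Vcan/Chil3 monocyte-like cells. C1q and cycling C1q macrophage-like cells had nearly the same mix, with *Fcgr1* at 32.7% and 32.6% and *Fcgr4* at 23.3% and 23.7%, although the levels of all 4 receptors were lower in the cycling cells. Hypoxic macrophage-like cells kept *Fcgr1* at 32.7% but had more *Fcgr2b* (20.6% against 15.8%) and less *Fcgr4* (17.9%). *Fcgr3* made up 91.5% of the 824 receptor UMIs in ZsG- NK-like cells, and *Fcgr2b* 75.0% of the 28 in plasmacytoid DC-like cells.

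**Figure D2:**
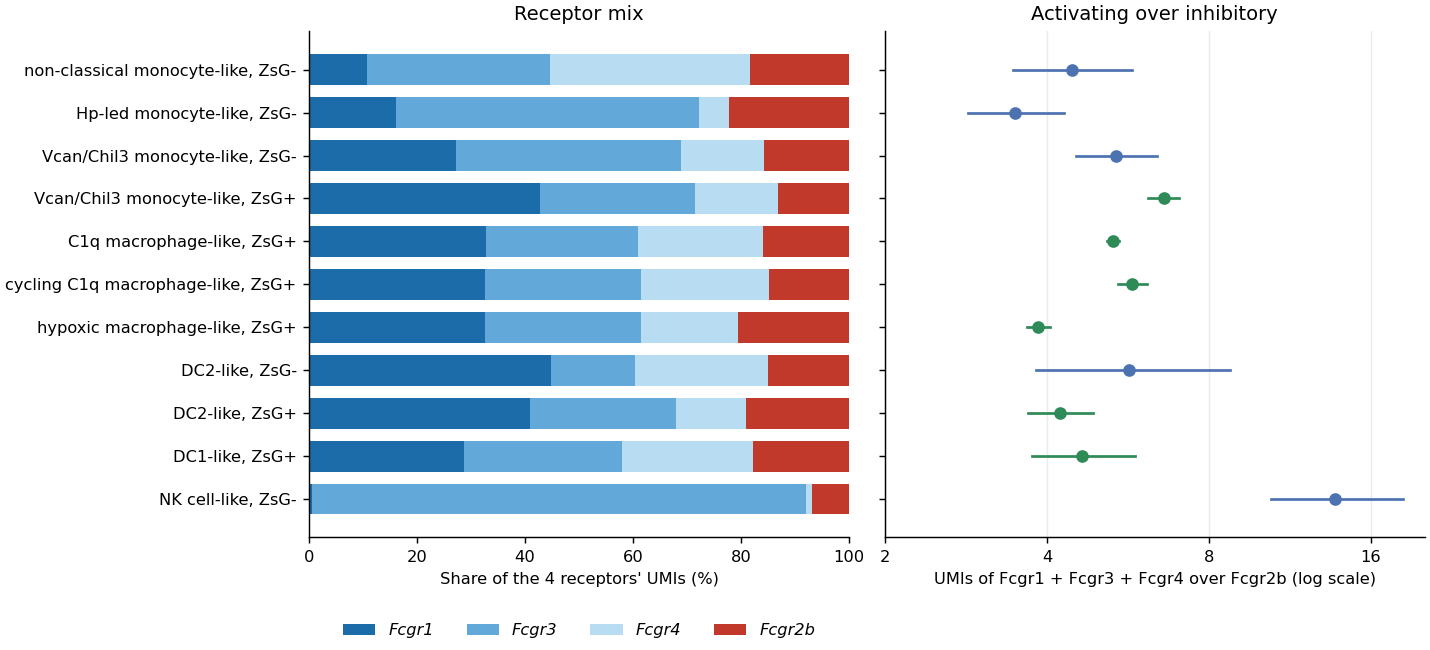
Share of the summed UMIs of the 4 Fc gamma receptors held by each receptor, by class and library (bars add to 100%), beside the ratio of activating to *Fcgr2b* UMIs (log axis) with 95% intervals for counting error. The 11 groups shown have at least 100 receptor UMIs. NK-like cells of the ZsG- library are almost all *Fcgr3*, and non-classical monocyte-like cells have the largest *Fcgr4* share.

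The first comparison asked how the receptors of non-classical monocytes, which patrol vessel walls, differ from those of inflammatory monocytes. Only the ZsG- library held enough cells of both, 58 non-classical and 68 Vcan/Chil3 monocyte-like cells, with 112 Hp-led monocytes beside them. Of the 68 Vcan/Chil3 monocyte-like cells, 58 lay in 1 cluster, led by *Cxcl10*. *Fcgr1* was 4.04-fold lower (2.94 to 5.67) in non-classical than in Vcan/Chil3 monocyte-like cells, at 106 against 430 CPM. It was the 1 member at least 2-fold lower, a size passed by 7.36% of the 5134 genes tested in that direction, and no member was at least 2-fold higher. With cells named singly from marker scores, however, *Fcgr4* was 2.77-fold higher (2.22 to 3.46). In the classes used here *Fcgr3* was 1.97-fold lower (1.62 to 2.40), *Fcgr2b* 1.36-fold lower (1.03 to 1.81) and *Fcgr4* 1.51-fold higher (1.20 to 1.89). The activating to inhibitory ratio differed by less than its counting error (log2 -0.28, -0.71 to 0.16), and its sign turned when the mitochondrial limit was 5%, with 10 principal components, or when cells were named singly from marker scores.

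Against Hp-led monocytes *Fcgr4* was the 1 member past 2-fold. It was 11.4-fold higher (7.69 to 17.5) in non-classical monocyte-like cells, on 155 UMIs over 58 cells against 30 UMIs over 112 cells, and 7.26% of 5938 genes were at least 2-fold higher. *Fcgr1* (106 and 94.0 CPM) and *Fcgr3* (336 and 329 CPM) had intervals of the fold that included 1, while *Fcgr2b* was 1.40-fold higher (1.04 to 1.87) and *Fcer1g* 1.15-fold higher (1.07 to 1.23). Hp-led monocytes were in turn at least 2-fold lower than Vcan/Chil3 monocyte-like cells in *Fcgr1* (4.57-fold, 3.58 to 5.88), *Fcgr3* (2.01-fold, 1.73 to 2.33) and *Fcgr4* (7.59-fold, 5.11 to 11.6), 3 of 5 members where 6.42% of 6119 genes passed. The Hp-led cells were split off only when monocytes were clustered on their own. When they were not, 109 of the 112 fell into the non-classical class, and *Fcgr4* was then lower in that class than in Vcan/Chil3 monocyte-like cells (log2 -0.90 in place of 0.59).

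**Figure D3:**
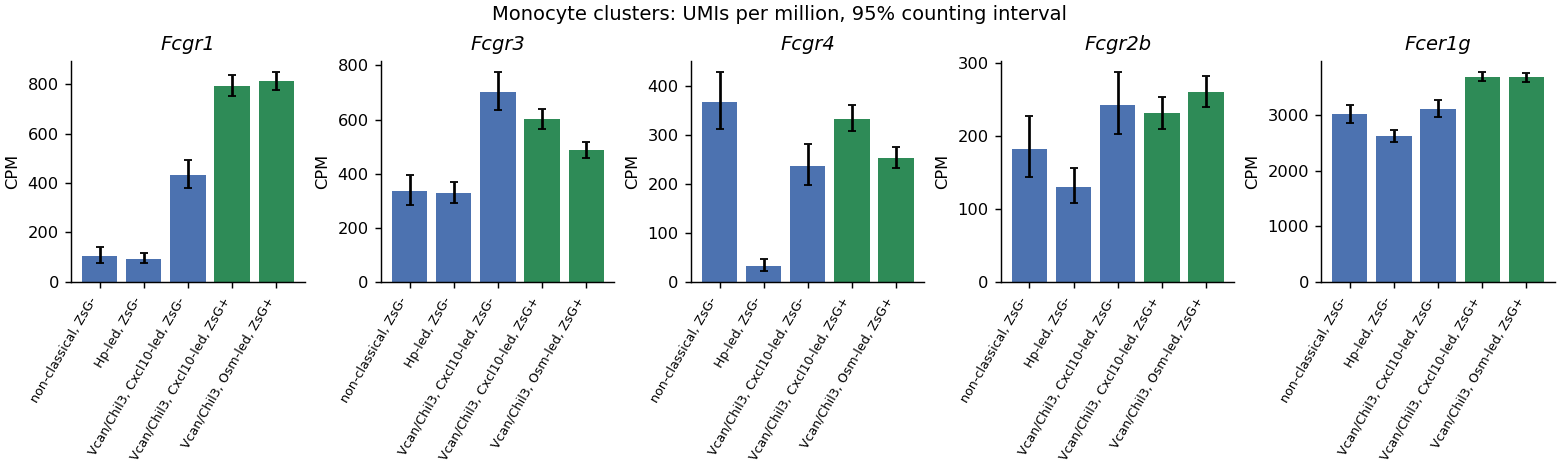
Bars give the level of each member in CPM, with 95% Poisson intervals for counting error, in the monocyte clusters of the ZsG- (blue) and ZsG+ (green) libraries, with Vcan/Chil3 monocyte-like cells split into a *Cxcl10*-led and an *Osm*-led cluster. *Fcgr4* separates non-classical (367 CPM) from Hp-led (32.1 CPM) cells, and *Fcgr1* separates Vcan/Chil3 monocyte-like cells from both.

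Genes of the same pathway moved with their own pattern. Over all 5134 genes tested, 11.5% were at least 2-fold higher in non-classical than in Vcan/Chil3 monocyte-like cells and 7.36% lower. Of 15 measured ITAM signaling genes 5 were at least 2-fold higher and none was lower (median log2 0.26, against 0.06 over all genes tested). Those with at least 100 UMIs were the kinase *Syk* (170 against 74.2 CPM), phospholipase *Plcg2* (222 against 99.5 CPM) and the Src-family kinase *Fgr* (324 against 145 CPM). Of 4 measured receptors that pair with the gamma chain 2 were at least 2-fold lower, both of them lectins: *Clec4d*, which encodes MCL (35.5 against 137 CPM), and *Clec4n*, which encodes Dectin-2 (56.7 against 145 CPM). The intervals of the other two, *Clec4e* (452 against 483 CPM) and *Pira2*, which encodes a receptor of the immunoglobulin superfamily (59.1 against 66.3 CPM), included no difference. Of 7 measured ITIM signaling genes 1 was at least 2-fold higher, the ubiquitin ligase gene *Cblb* (104 against 23.7 CPM), and 1 lower, the inhibitory adaptor gene *Dok2* (33.1 against 160 CPM), with a median log2 of 0.58. In Hp-led monocytes *Dok2* was lower still, at 9.62 CPM, while *Syk* was 162 CPM, and *Clec4d* was 97.3 CPM.

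The next comparison asked what sets macrophages apart from the monocytes of the same ZsG+ library. None of the 5 members differed by 2-fold between C1q macrophage-like and Vcan/Chil3 monocyte-like cells. Of 10772 genes tested, 13.4% were at least 2-fold higher and 5.39% lower in the macrophages. *Fcgr4* (511 against 289 CPM) and *Fcgr2b* (348 against 247 CPM) were higher in the macrophages and *Fcgr1* lower (718 against 804 CPM). The activating to inhibitory ratio was lower in the macrophages (log2 -0.31), and was -0.073 when cells were named singly from marker scores. *Fcgrt*, which encodes the neonatal Fc receptor that recycles IgG, was at least 2-fold higher in the macrophages, at 45.8 against 18.4 CPM. *Clec4e*, which encodes Mincle, was 175 against 395 CPM and *Fgr* 66.9 against 136 CPM, while none of 8 measured ITIM signaling genes passed 2-fold in either direction.

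Hypoxic and cycling macrophage-like cells also had no member past 2-fold against C1q macrophage-like cells. In the hypoxic cells 6.58% of 10829 genes were at least 2-fold higher and 7.51% lower. The shares in the cycling cells were 9.87% and 2.21% of 11109 genes. Of 4 measured receptors that pair with *Fcer1g*, 2 were at least 2-fold higher in the hypoxic cells and none lower, *Clec4d* (326 against 81.8 CPM) and *Clec4e* (411 against 175 CPM), with *Fcer1g* itself at 3723 against 4224 CPM. *Gab2*, an adaptor of the ITAM pathway, was 31.9 against 13.7 CPM. In the cycling cells *Clec4n* (94.6 against 223 CPM) and *Clec4e* (83.0 against 175 CPM) were lower, and the Fc receptor-like gene *Fcrls* was higher (12.6 against 3.53 CPM).

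NK cells kill antibody-coated targets through the product of *Fcgr3*, and T cells served as the class that should lack most members. In the ZsG- library *Fcgr3* was 20.2-fold higher (15.1 to 27.4) in 2439 NK-like than in 1499 T-like cells, *Fcer1g* 15.5-fold higher (14.9 to 16.2) and *Fcgr2b* 7.49-fold higher (3.78 to 16.5). The fold of *Fcgr3* was 9.48 at a mitochondrial limit of 5% and 11.2 with cells named singly from marker scores, and that of *Fcer1g* was 8.89 as a mean over cells. These were 3 of the 4 members with enough UMIs to be tested, and 9.95% of 11745 genes were at least 2-fold higher. *Fcgr4* had 10 against 11 UMIs and *Fcgr1* 4 against 10 UMIs. Levels of C1q genes, which neither class is known to make, were alike in both (6.19 and 6.59 CPM for *C1qa*, *C1qb* and *C1qc* together).

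Both measured receptors that pair with the chain were at least 2-fold higher in NK-like cells. *Ncr1*, which encodes NKp46, was 416 against 13.7 CPM. *Clec4e* was low in both classes, at 2.56 against 0.453 CPM on 38 and 9 UMIs. Of 3 other ITAM adaptors 1 was at least 2-fold higher, *Tyrobp*, which encodes DAP12 (2435 against 85.2 CPM). *Cd247*, which encodes the zeta chain, was 59.5 against 84.1 CPM. The kinase *Syk* was 39.0 against 1.31 CPM. Of 14 measured ITAM signaling genes 8 were at least 2-fold higher in NK-like cells and none lower (median log2 1.16, against 0.05 over all genes). Of 7 measured ITIM signaling genes 2 were higher and none lower, with a median of -0.04.

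Within the NK-like cells, clusters differed in *Fcgr3*. The cluster led by *Sult2b1* had 81.8 CPM (69.3 to 95.9) and the one led by *Xcl1* 26.9 CPM (21.5 to 33.3), a 3.04-fold difference (2.31 to 4.01), while *Fcer1g* was 1895 and 2042 CPM. The largest cluster, led by Ly49 genes such as *Klra4*, had 66.5 CPM. A cluster of 241 cells with high *Gzma* and *Cma1* had 21.3 CPM (12.4 to 34.1) of *Fcgr2b*, 9.80-fold above the largest cluster (4.24 to 24.0), on 17 against 10 UMIs, and 3162 CPM of *Fcer1g*, 1.74-fold above it (1.67 to 1.82). *Cma1* encodes a mast cell chymase, and mast cells are known to make both *Fcgr2b* and *Fcer1g*. In the 241 cells *Cma1* had 193 UMIs, and the other 6 mast cell and basophil markers (*Cpa3*, *Mcpt8*, *Mcpt4*, *Tpsb2*, *Gata2* and *Hdc*) had 0 UMIs each. Whether mast cell transcripts add to the levels of this cluster was not tested.

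T-like cells were not uniform in *Fcer1g* either. A cluster of 416 cells in which *Ikzf2* and the Ly49 gene *Klra6* led had 581 CPM (549 to 615), 20.2-fold (17.7 to 23.0) above the cycling cluster (28.8 CPM) and 6.78-fold (5.81 to 7.95) above a cluster with *Cd8b1*, *Ctla4* and *Pdcd1* among its leading genes (85.7 CPM). After thinning, 67.9% of its cells had a *Fcer1g* UMI, against 7.05% of the cycling cells. NK-like cells of the largest cluster still had 3.12-fold more (2.94 to 3.31). The same T-like cluster had 293 CPM of *Cd3e* with 330 CPM of *Tyrobp*, 167 CPM of *Klrb1c* and 59.5 CPM of *Ncr1*, against 6.30, 2574, 509 and 366 CPM in the largest NK-like cluster. Its *Fcgr3* was 9.52 CPM (20 UMIs) and its *Fcgr2b* 1 UMI. The cluster scored 0.677 on the T list, 0.58 on the ILC1 list and 0.45 on the NK list. The naming rule did not check T clusters against the ILC1 and NK lists. Clusters led by *Dapl1* and by interferon-induced genes, in both of which *Ikzf2* was also among the leading genes, had 217 and 300.4 CPM of *Fcer1g*. Whether pairs of cells in 1 droplet add to these values was not tested cell by cell. The doublet caller called 1 of 4699 and 0 of 4123 cells, so its scores cannot decide this. Leaving out the 5% of cells with the highest scores changed *Fcer1g* of all NK-like over all T-like cells from log2 3.95 to 4.17.

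**Figure D4:**
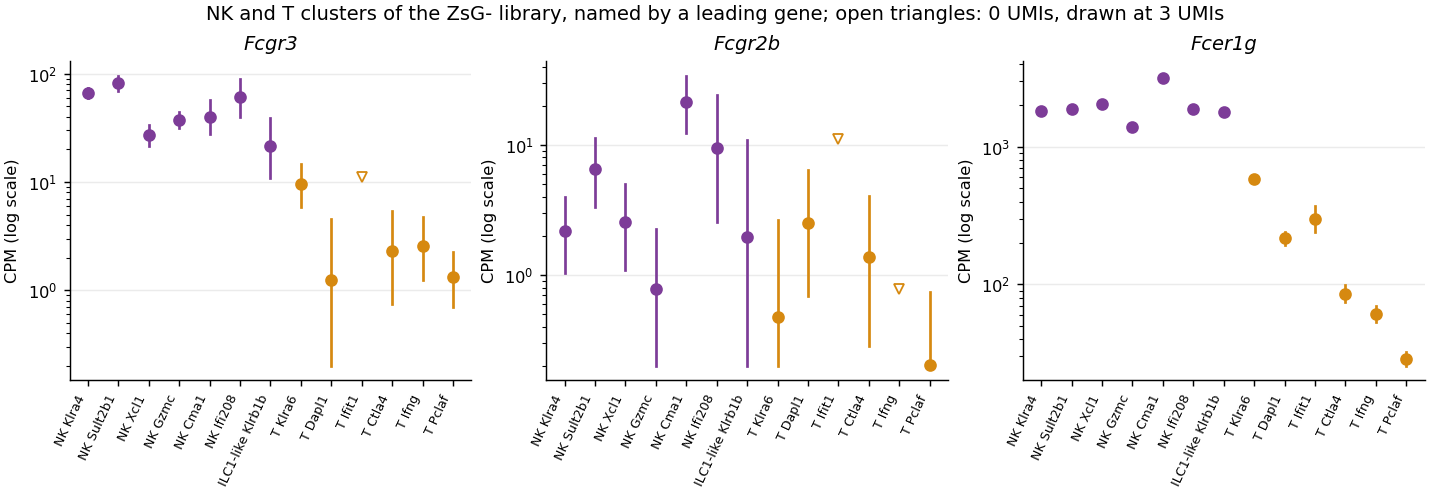
Level of *Fcgr3*, *Fcgr2b* and *Fcer1g* in CPM (log axis) in the NK-like and ILC1-like (purple) and T-like (orange) clusters of the ZsG- library, each named by a leading gene, with 95% Poisson intervals for counting error, cut at 0.2 CPM. Open triangles mark 0 UMIs, drawn at 3 UMIs. *Fcgr3* falls from 81.8 to 26.9 CPM between NK-like clusters with about the same *Fcer1g*, and 1 T-like cluster reaches 581 CPM of *Fcer1g*.

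Dendritic cells present antigen, and the receptors let them take up immune complexes. In the ZsG+ library DC2-like cells (222) had 4 of the 5 members at least 2-fold lower than C1q macrophage-like cells, where 12.3% of 10746 genes were lower. *Fcgr4* was 6.98-fold lower (6.01 to 8.17), *Fcgr3* 4.06-fold (3.65 to 4.52), *Fcgr2b* 3.23-fold (2.85 to 3.68) and *Fcgr1* 3.12-fold (2.87 to 3.41), while *Fcer1g* was 1.75-fold lower. *Fcgr1* was accordingly the leading receptor of DC2-like cells, with 40.9% of receptor UMIs. The activating to inhibitory ratio was 4.23 (3.69 to 4.87). These values leave out a further cluster of 156 ZsG+ cells, led by *Mgl2*. It had no name because it scored 0.775 on the C1q macrophage list and 0.699 on the DC2 list. Its levels were 490 CPM of *Fcgr1*, 416 CPM of *Fcgr3*, 290 CPM of *Fcgr2b*, 288 CPM of *Fcgr4* and 3156 CPM of *Fcer1g*. The folds thus hold for the named cells only, and folds with these cells included were not tested.

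Mature DC-like cells (54) had few receptor UMIs: all 5 members were at least 2-fold lower than in C1q macrophage-like cells, as were 26.4% of 10652 genes. They gave 8 UMIs of *Fcgr1*, 17 of *Fcgr3*, 5 of *Fcgr4* and 4 of *Fcgr2b*, or 7.86 to 33.4 CPM. *Fcer1g* was still 1016 CPM, 4.16-fold lower (3.81 to 4.54). In mature DC-like cells 10 of 16 ITAM signaling genes were lower and 1 higher (*Pik3r5*, 70.7 against 26.4 CPM), with a median log2 of -1.33. Of 8 measured ITIM signaling genes 5 were lower and 2 higher, with a median log2 of -1.29. The median over all genes tested was -0.25, and 15.6% of them were at least 2-fold higher. Among the ITIM genes *Cblb*, which encodes a ubiquitin ligase that restrains signaling, was higher, at 169 against 14.3 CPM. Another 18 ZsG+ cells, led by *Il12b* and *Fscn1*, had no name because they scored 0.842 on the C1q macrophage list and 0.804 on the mature DC list. They had 472 CPM of *Fcgr1*, 422 CPM of *Fcgr3*, 368 CPM of *Fcgr4* and 187 CPM of *Fcgr2b*, and are not in the values above.

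DC1-like cells (65) had all 5 members at least 2-fold lower, from 3.47-fold for *Fcgr2b* to 4.41-fold for *Fcgr1*, where 15.0% of 10679 genes were lower. Their receptor values moved with C1q UMIs. The 40 cells with fewer than 3 UMIs of *C1qa*, *C1qb* and *C1qc* held 18 activating and 20 *Fcgr2b* UMIs, a ratio of 0.900 (0.449 to 1.79), and the 25 cells with 3 or more held 452 and 81, a ratio of 5.58 (4.40 to 7.16). In the former *Fcgr2b* was 43.0 CPM, *Fcgr4* 21.5 CPM, *Fcgr1* 12.9 CPM and *Fcgr3* 4.31 CPM, with *Fcer1g* at 370 CPM. After thinning, *Fcgr2b* had a UMI in 22.5% and an activating receptor in 7.50% of these 40 cells. *Xcr1* was 489 CPM in the 40 cells and 261 CPM in the 25. The split by C1q UMIs was chosen after the data were seen. With the C1q-bearing cells left out, the ratio of DC1-like over C1q macrophage-like cells went from log2 -0.19 to -2.56, and it was -2.44 to -1.88 under 3 other settings of the cell filter and the clustering. Whether these UMIs were made by the cells that hold them was not tested. The same split gave DC2-like cells a ratio of 4.75 (3.98 to 5.70) in the 166 of 222 cells with fewer than 3 C1q UMIs, where *Fcgr2b* was 92.4 CPM against 108 CPM over all of them and *Fcgr3* 133 against 152 CPM.

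*Fcgrt* was at least 2-fold higher in DC2-like (144 CPM) and DC1-like cells (96.3 CPM) than in C1q macrophage-like cells (45.8 CPM), and was 29.5 CPM in mature DC-like cells. Of 4 measured receptors that pair with *Fcer1g*, 2 were at least 2-fold lower in DC2-like cells, *Clec4d* (8.93 against 81.8 CPM) and *Clec4e* (31.5 against 175 CPM), while *Pira2* was 70.6 against 91.0 CPM. In DC1-like cells all 4 were at least 2-fold lower, with *Clec4n* at 26.8 against 223 CPM. *Dok2* was 57.6 CPM in DC1-like and 11.8 CPM in mature DC-like cells against 311 CPM, *Fgr* 11.9 against 66.9 CPM in DC1-like cells, and *Inppl1*, which encodes SHIP-2, 7.65 against 23.5 CPM in DC2-like cells. In mature DC-like cells *Clec4e* was 5.89 CPM on 3 UMIs, *Clec4n* 17.7 CPM, and the adaptor *Dok1* was higher, at 90.4 against 38.2 CPM.

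**Figure D5:**
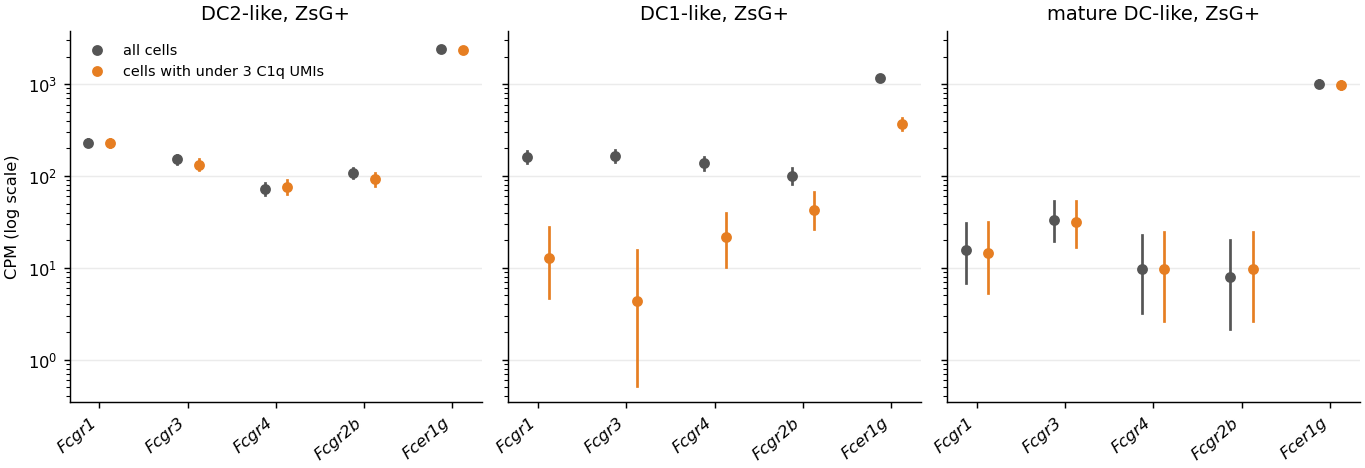
Level of each member in CPM (log axis) in the DC classes of the ZsG+ library, over all cells and over cells with fewer than 3 C1q UMIs, with 95% Poisson intervals for counting error. Without the C1q-bearing cells *Fcgr3* goes from 166 to 4.31 CPM in DC1-like cells and from 152 to 133 CPM in DC2-like cells.

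The last comparison was the one the sort was made for, ZsG+ over ZsG- cells of the same class, possible in 4 classes. In Vcan/Chil3 monocyte-like cells (593 and 68 cells) *Fcgr1* was 1.87-fold higher (1.65 to 2.13) in the ZsG+ library, *Fcgr4* 1.19-fold (1.00 to 1.41) and *Fcer1g* 1.14-fold (1.09 to 1.19), while *Fcgr3* was 1.23-fold lower (1.10 to 1.36). No member passed 2-fold, where 7.42% of 8077 genes were at least 2-fold higher and 4.63% lower. The class was made of a pair of clusters. Within the one that both libraries filled (272 and 58 cells) *Fcgr1* was 794 against 434 CPM, 1.83-fold higher (1.59 to 2.11). *Dok2* was 333 against 160 CPM. The ZsG+ cells held 116 CPM and the ZsG- cells 12.6 CPM of *C1qa*, and the part of this in the result was not tested.

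In DC2-like cells (222 and 54 cells) *Fcgr3* was 2.93-fold higher (2.02 to 4.41) and *Fcgr2b* 2.14-fold higher (1.46 to 3.26) in the ZsG+ library, 2 of 5 members where 8.23% of 7476 genes passed. *Fcgr1* was 1.53-fold higher (1.21 to 1.94) and *Fcgr4* was 73.1 against 83.1 CPM. Different clusters held most of the class in each library, 191 of the ZsG+ cells in one and 49 of the ZsG- cells in the other. Within the cluster both filled (31 and 49 cells) *Fcgr1* was 3.02-fold higher (2.21 to 4.14) and *Fcgr3* and *Fcgr2b* each 1.95-fold higher (1.05 to 3.58). *C1qa* was 98.6 CPM in the ZsG+ cells and had 0 UMIs in the ZsG- cells, and in the 166 ZsG+ cells with fewer than 3 C1q UMIs *Fcgr3* was 133 CPM and *Fcgr2b* 92.4 CPM, against 51.9 and 50.2 CPM in the ZsG- library. Of 4 measured receptors that pair with *Fcer1g*, 3 were at least 2-fold higher, among them *Clec4n* (135 against 41.5 CPM) and *Pira2* (70.6 against 29.4 CPM).

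In T-like and NK-like cells *Fcgr1*, *Fcgr2b*, *Fcgr4* and the C1q genes had higher levels in CPM in the ZsG+ library. The paper states that this sort took bright cells and that most lymphocytes with ZsG lay in its ZsG- gate. It judged the lymphocytes of the ZsG+ gate too few to analyze further. ZsG- lymphoid cells are therefore not cells without ZsG. ZsG+ T-like cells (118) had 4 of the 5 members at least 2-fold higher than ZsG- T-like cells, where 3.42% of 10990 genes were, namely *Fcgr1* (9.11 against 0.503 CPM), *Fcgr4* (10.1 against 0.554 CPM), *Fcgr2b* (8.10 against 0.503 CPM) and *Fcgr3* (13.7 against 2.52 CPM), each on 16 to 27 UMIs. *Fcer1g* was lower, at 70.9 against 119 CPM. The clusters differed, however: the cycling cluster held 67 of the 118 ZsG+ but 298 of the 1499 ZsG- T-like cells, and within it *Fcer1g* was 1.86-fold higher (1.43 to 2.39) in the ZsG+ library, at 53.5 against 28.8 CPM. A further cluster scored 0.805 on the T list and 0.485 on the C1q macrophage list, so it had no name and is left out here. Its 78 ZsG+ cells had 658 CPM of *Fcer1g*, so the lower level holds for the named cells only. The C1q level of the 118 ZsG+ T-like cells was 107 CPM against 6.59 CPM in the ZsG- T-like cells. Per 100 C1q UMIs they held 8.53 UMIs of *Fcgr1*, 7.58 of *Fcgr2b*, 12.8 of *Fcgr3*, 9.48 of *Fcgr4* and 66.4 of *Fcer1g*, beside 11.5, 5.55, 9.59, 7.32 and 68.1 over all ZsG+ cells. The 90 of them with fewer than 3 C1q UMIs held 19 UMIs of *Fcgr3*, 13 of *Fcgr2b* and 85 of *Fcer1g* on 79 C1q UMIs. Whether these UMIs were made by the cells that hold them was not tested.

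ZsG+ NK-like cells (112) had 1 of the 3 members with at least 20 UMIs past 2-fold, *Fcgr2b* (11.4 against 3.77 CPM, on 6 UMIs), where 7.52% of 10613 genes passed. Different clusters held most of the class in each library: 90 of the 112 ZsG+ cells lay in a cluster with 10 of the 2439 ZsG- cells, too few for values within it. *Fcgr3* was 66.3 against 50.7 CPM, a fold whose interval included 1 (0.903 to 1.83), and *Fcer1g* 1957 against 1837 CPM. *Fcgr1* was 24.6 against 0.269 CPM and *Fcgr4* 17.0 against 0.673 CPM, on 13 and 9 UMIs in the ZsG+ cells. Per 100 C1q UMIs they held 8.90 UMIs of *Fcgr1*, 4.11 of *Fcgr2b*, 6.16 of *Fcgr4*, 24.0 of *Fcgr3* and 708 of *Fcer1g*. The kinase *Prkcd* was 51.2 against 22.1 CPM in NK-like cells, and *Ncr1* was 1.01 against 13.7 CPM in T-like cells.

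The genes whose levels were most like each member over the 18 groups were ranked by Pearson's r of log2(CPM + 10) among 8583 genes, as a description with no test, since groups share libraries and depth. Nearest to *Fcgr1* were *Clec4n* (0.974), *Ms4a6d* (0.972) and *Egr2* (0.971), and to *Fcgr4* *Tgm2* (0.979), *Egr2* (0.962) and *Slc35f6* (0.953). *Fcgr3* was nearest to *Lilrb4a* (0.961), *Itgam* (0.961), which encodes CD11b, and *Rab31* (0.956), and *Fcgr2b* to *Bst1* (0.972), *Ubtd1* (0.965) and *Hcar2* (0.952). *Fcer1g* was nearest to *Tyrobp* (0.935), followed by *Runx1* (0.882) and *Rnf130* (0.877). Among the members, r between any pair of the 4 receptors lay between 0.901 and 0.955, and between a receptor and *Fcer1g* between 0.612 and 0.761.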

How the data were processed

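The CD45+ libraries were read from 1 deposited table of both libraries, in which the suffix of a barcode gives its gate. Its values are UMI counts per gene and cell, which the authors made with Cell Ranger against mm10 and combined with the aggr command. The submitters' notes and the methods name version 6.1.2 and the header of the matrix 7.0.0, and no source used here says whether aggr evened depth. The sorted T cell libraries were not used here.

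Cells with 1000 to 5999 genes and under 10% mitochondrial UMIs were kept, as in the study's filter, and clustered (R 4.3.3, Seurat 5.3.0) on 2000 variable genes without the members and pathway genes (20 principal components, resolution 0.8, and 0.5 within families and within monocytes). Names came from set marker lists, by a rule decided after clusters were seen. No cluster was named for neutrophils, mast cells or basophils, or melanoma cells. Clusters with more leading markers of another class than their own, or DC clusters that scored higher on a macrophage list, had no name. Clusters also had no name where a list checked for their lineage scored at least 0.45 and within 0.35 of their own. NK, T and B clusters were checked against the C1q macrophage list only. Plasmacytoid DC clusters were checked against the DC2, NK and T lists. Other myeloid clusters were checked against the NK and T lists, and DC clusters also against the C1q macrophage list. T clusters were thus not checked against the NK or ILC1 lists. Scrublet, run through scanpy 1.11.5, called 1 of 4699 and 0 of 4123 cells and so had not worked. Doublets were therefore kept, and the top 5% of scores left out as an alternative.

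For each class in a library, summed UMIs were divided by the total UMIs of those cells (CPM). Software was scipy 1.17.1, numpy 2.4.6, matplotlib 3.10.9 and pandas 2.3.3 under Python 3.11.15. With 1 library per gate there is no test and no p-value. Intervals are 95% and cover counting error only: exact Poisson, exact binomial (Clopper-Pearson), exact conditional for ratios, and a normal interval on the log scale for the difference of 2 activating to inhibitory ratios. PCR copies are removed by the UMI. The floor is 3 UMIs. Genes entered a comparison from 20 UMIs over both classes, with 0.5 added to each sum for counts past 2-fold and list medians, and a 2-fold difference as the size counted. The steps across genes were tested on simulated counts.

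The members, the lists and the comparisons were chosen with earlier results of these data known. The text names the 5 members, the first marker of each class, up to 3 pathway genes per direction and comparison with the largest fold past 2-fold and at least 100 UMIs, and the 3 genes most like each member (at least 20 CPM in a group, members left out). Pathway genes with fewer UMIs or a smaller fold, given beside the count of a list, clusters within the NK-like and T-like cells, their genes and their contrasts, and Hp-led monocytes as a class, were chosen after their values were seen. Promoter windows came from RefSeq on GRCm38.p6.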

Additional observations from a re-analysis of the deposited data

How the results depend on the processing

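Over 8 comparisons and their alternatives, 60 values moved by less than their counting interval, 16 moved further and 1 whose interval excluded 0 changed direction. The ratio of non-classical over Vcan/Chil3 monocyte-like cells, whose interval spanned 0, also turned sign under 3 alternatives. The *Fcgr4* level of non-classical over Hp-led monocytes (log2 3.51) moved beyond its interval under none of the alternatives run. That of non-classical over Vcan/Chil3 monocyte-like cells (0.59) was 1.47 with cells named singly from marker scores, and -0.90 when monocytes were not clustered again, since 109 of 112 Hp-led cells then joined the class. The activating to inhibitory ratio of the same pair (-0.28) was 0.34 at a mitochondrial limit of 5%, 0.12 with 10 principal components and 0.20 with marker scores. With marker scores it was -0.073 for C1q macrophage-like over Vcan/Chil3 monocyte-like cells (-0.31) and -0.57 for DC2-like over C1q macrophage-like cells (-0.33). For DC1-like over C1q macrophage-like cells (-0.19) it was -2.44 with at least 500 genes and no upper limit, -2.33 with 10 principal components, -1.88 with every resolution halved and -2.56 with C1q-bearing DC left out. NK-like over T-like cells in *Fcgr3* (4.33) gave 3.25 at 5% mitochondrial UMIs and 3.49 with marker scores. In *Fcer1g* (3.95) they gave 4.25 at 5% mitochondrial UMIs, 4.15 with at least 500 genes, 3.83 with 10 components, 4.17 without the top 5% of doublet scores and 3.15 as a mean over cells. Unless stated above, the cause was not tested. Monocytes not clustered again and DC without C1q-bearing cells were chosen after seeing the data.

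With at least 100 UMIs in place of 20, the genes past 2-fold went from 378 to 126 and from 393 to 148 (lower in non-classical and in Hp-led than in Vcan/Chil3 monocyte-like cells), from 431 to 91 (non-classical over Hp-led), 1169 to 712 (NK-like over T-like), 1318 to 865 (DC2-like), and, ZsG+ over ZsG-, 615 to 183 (DC2-like), 798 to 227 (NK-like) and 376 to 93 (T-like). Fewer genes were tested: as shares of them the first pair went from 7.36% to 7.87% and from 6.42% to 6.58%, and the others, in the same order, from 7.26% to 4.57%, 9.95% to 7.41%, 12.3% to 10.3%, 8.23% to 5.38%, 7.52% to 2.79% and 3.42% to 1.07%. Shares of cells followed depth: 57 of 90 shares at 2000 UMIs lay within the interval at 3000, and *Fcgr3* in ZsG- NK-like cells went from 15.2% to 10.4%, or 23.2% without thinning. Non-classical against Vcan/Chil3 monocyte-like cells gave no value with every resolution halved, nor did non-classical against Hp-led cells, which also gave none with marker scores or without clustering monocytes again. No paired analysis was possible because each gate had 1 library.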
